A study of Mus musculus with 44 samples.

Results

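The 10 genes described here are the m6A readers Ythdf1, Ythdf2, Ythdf3, Ythdc1, Ythdc2, Igf2bp1, Igf2bp2 and Igf2bp3 and the m6A erasers Fto and Alkbh5, out of 46831 genes in the count table. They were taken by symbol, each symbol named 1 entry of the table, and all 10 passed the filter on low counts in every comparison. N6-methyladenosine (m6A) is a methyl mark that the METTL3 complex writes into mRNA, mostly around stop codons and in 3'UTRs. Reader proteins bind the marked transcript and alter its decay, splicing, export or translation, and eraser enzymes take the methyl group off again. The YTH-domain proteins hold the methylated base in an aromatic pocket, whereas the IGF2BP proteins are RNA-binding proteins of fetal and tumor tissue that protect their bound transcripts.

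The values come from SLIM-seq, a low-input method in which an anti-m6A antibody precipitates RNA (IP) that is sequenced beside the RNA before precipitation (input). The 8 cell populations, sorted by surface antigens, were the skeletal stem cells (SSC), the progenitors pBCSP (pre-BCSP in the labels) and BCSP, and the downstream PCP, THY, BLSP, 6C3 and HEC. The first 3 of these are called upstream here. All were taken from the long bones of C57Bl6 mice (C57BL/6J in the methods) at postnatal day 3, with 2 IP and 2 input libraries each. SSC, pBCSP and BCSP were also sorted from mice labelled Mettl3cko, again with 2 IP and 2 input libraries each, which makes 44 libraries. According to the methods of the study, the cKO animals carried Mettl3 fl/fl with Col2a1-Cre and their controls Mettl3 fl/fl alone, so deletion is limited to cells that have switched on the type II collagen promoter and to their descendants. Animals of either sex from several litters were used, the replicates were separate experiments, and no treatment is named for any group. The genotype field of the labels nevertheless reads wild type (WT) for all 44 libraries, so the Mettl3cko assignment rests on titles and library names.

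Mettl3 itself went against the Mettl3cko label in SSC and pBCSP. In SSC, the input libraries labelled Mettl3cko held 16.7 and 18.4 CPM (counts scaled to library size with TMM factors over the input libraries) against 15.3 and 15.5 CPM in WT, and in pBCSP 22.3 and 22.8 against 12.1 and 16.1 CPM. In BCSP they were lower, at 16.2 and 17.7 against 18.02 and 19.73 CPM. The 2 labels, with 2 libraries each, did not overlap within any of these populations, and over the 3 the log2 fold change was 0.25 (SE 0.15, edgeR adjusted p = 0.362). Counts per gene cannot show whether floxed exons are missing, so the genotype was not checked by this value. The study itself reports the Mettl3 deletion by qRT-PCR and by Western blot in SSCs, and less m6A in stem and progenitor cells by dot blot. From its m6A profiles it also reports lower levels in SSC, pBCSP and BCSP after Mettl3 loss. By MeRIP-PCR it reports less m6A on Fem1b, Bmpr1a and Bglap in the SSCs without Mettl3. Col2a1 and Sox9, which define cartilage cells, were high in the upstream WT input libraries (23850 to 30160 and 3478 to 5857 TPM, counts scaled to exon length and library). They were about as high in HEC (24360 to 32070 and 4767 to 5291 TPM). In 6C3 they overlapped the upstream values (13000 to 27550 and 3428 to 4637 TPM). Matn1 did separate the sides, at 1688 to 2988 TPM upstream and 2.19 to 45.5 TPM downstream. Thy1, the surface antigen that names the THY gate, stayed at or below 0.419 TPM upstream. Downstream, Thy1 was at 29.7 to 43.9 TPM in THY, 35.2 to 45.5 TPM in BLSP and 22.85 to 33.8 TPM in PCP. In 6C3 and HEC it was at 0.0730 to 0.505 TPM. Enpep, which encodes the 6C3 antigen, reached at most 4.20 TPM upstream. It was at 30.6 to 33.7 TPM in 6C3 and 39.7 to 41.4 TPM in HEC. PCP, THY and BLSP held 3.26 to 7.10 TPM of it. Hlf, the gene that gives HEC its name, did not single out that population. It was at 1.75 to 2.78 TPM in HEC, 2.64 to 4.32 TPM in BLSP and 1.18 to 4.50 TPM in PCP. Tek encodes the Tie2 antigen used to gate cells out. Its values were 5.06 to 7.22 TPM in PCP and 5.05 to 5.31 TPM in THY, against at most 0.656 TPM upstream. Input libraries held 19795666 to 44046651 counts and IP libraries 16480027 to 35856651. Replicates correlated over genes at 0.959 to 0.984 in WT input, 0.903 to 0.960 in WT IP, 0.935 to 0.957 in Mettl3cko input and 0.696 to 0.792 in Mettl3cko IP, so the IP libraries labelled Mettl3cko agreed least.

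All of the 10 genes but Ythdc1 contained GGACT, the best known core of an m6A site, in the transcript with the longest coding sequence (GENCODE vM21, GRCm38, searched on the transcript strand only). Ythdf1 and Ythdf3 each held 1 such site, Igf2bp3 2, Fto and Ythdc2 3, Ythdf2 and Igf2bp2 5, and Igf2bp1 and Alkbh5 10, against a median of 3 over 15391 genes, of which 91.51% held at least 1. All 10 sites of Igf2bp1 and 8 of the 10 of Alkbh5 lay in the 3'UTR. The site nearest to the stop codon is shown for the 6 genes whose mRNA or ratio is followed most closely here, with GGACT in capitals and 10 bases on each side:
Ythdf1: agtcccctgtGGACTacggcaccag
Ythdf2: aagaaaattaGGACTttttttctta
Ythdf3: aggcatgactGGACTgaaaattggt
Igf2bp1: tgtggtggtcGGACTacaacccaac
Fto: cgagtcgtccGGACTttaccagtac
Alkbh5: tgccctcttgGGACTctggctaatc
The windows of Ythdf1 (chr2:180910958-180910982, minus strand), Ythdf3 (chr3:16204257-16204281, plus strand) and Fto (chr8:91666292-91666316, plus strand) are coding and lie 308, 1177 and 129 bases before the stop codon. The windows of Ythdf2 (chr4:132186832-132186856, minus strand), Igf2bp1 (chr11:95962279-95962303, minus strand) and Alkbh5 (chr11:60554423-60554447, plus strand) lie in the 3'UTR, 82, 1211 and 22 bases after the stop codon. Over genes, which are not independent of each other, Spearman's rho between GGACT per kilobase and the IP to input ratio was between -0.109 and -0.073 in the 8 WT populations. A match to these letters is a description of the sequence and was not measured as a methylated site.

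Scaled to the length of all annotated exons, the eraser Alkbh5 was the most abundant of the 10 mRNAs and the helicase reader Ythdc2 the least. Over the 16 WT input libraries, the median was 148.5 TPM for Alkbh5, 112.8 TPM for Ythdf2, 55.0 TPM for Ythdf3, 50.3 TPM for Igf2bp2, 46.0 TPM for Fto and 28.1 TPM for Ythdf1. The other genes lay lower, with medians of 10.6 TPM for Ythdc1, 9.22 TPM for Igf2bp1, 7.42 TPM for Igf2bp3 and 5.62 TPM for Ythdc2. Of the cytoplasmic YTHDF readers, Ythdf2, which recruits deadenylases, was thus the most abundant and Ythdf1, linked to translation, the least. All annotated exons together came to 13031 bases for Fto, 13651 for Ythdc1 and 5987 for Alkbh5. In the transcript with the longest coding sequence they had 3564, 2960 and 5730 bases. The places of Fto and Ythdc1 relative to Alkbh5 and the others therefore depend on the length chosen. An order by transcript length was not computed.

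The first question is whether these mRNAs differ among the 8 WT populations. By edgeR's quasi-likelihood F test, 3 of the 10 genes did, namely Ythdf2 (adjusted p = 0.0179), Igf2bp1 (adjusted p = 5.61e-06) and Igf2bp2 (adjusted p = 0.0493), while 40.1% of the 20060 genes tested were called in the same test. With 1 library left out at a time, Igf2bp1 was called in 16 of 16 analyses, Ythdf2 in 14 and Igf2bp2 in 3. Between SSC, pBCSP and BCSP on one side and the downstream populations on the other, 3 of 10 were called higher upstream (Ythdf2, Ythdf3 and Ythdc2) and 1 lower (Igf2bp1), beside 23.1% of genes higher and 28.3% lower. Read against these shares, the counts say nothing particular about the 10 genes as a group. Their median log2 fold change was 0.12 against -0.11 over all genes. In bulk samples of sorted cells, fewer cells of a type and less RNA per cell cannot be told apart.

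Igf2bp1, an IGF2BP reader best known from fetal tissue (chr11:95957163-96005940), showed the widest range. Its input values were 5.14 and 3.21 CPM in SSC, 4.92 and 10.3 CPM in pBCSP and 2.84 and 5.55 CPM in BCSP. Downstream it was at 27.1 and 26.7 CPM in PCP, 27.4 and 31.6 CPM in THY, 14.9 and 16.5 CPM in BLSP, 73.0 and 39.4 CPM in 6C3, and 31.8 and 38.3 CPM in HEC. Every upstream library lay below every downstream library, which held for no other member. The share of all genes that separate in this way was not counted. The order of the means ran from 6C3 (56.2 ± 23.7 CPM, SD, n = 2) through HEC, THY, PCP, BLSP, pBCSP and BCSP to SSC (4.18 ± 1.37 CPM, SD, n = 2), a 13.5-fold range. The first place of 6C3 and the width of the range rest largely on its replicate 1 (73.0 CPM). Its replicate 2 (39.4 CPM) lay just above the higher HEC library (38.3 CPM). Neighbors in this order did not overlap except pBCSP with BCSP and BCSP with SSC, and the share of all genes with such neighbors was not counted. Upstream against downstream, the log2 fold change was -2.55 (SE 0.22, edgeR adjusted p = 9.95e-08).

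Igf2bp2, the paralog that stays on in many adult tissues (chr16:22059009-22163299), and Igf2bp3 did not follow this split. Igf2bp2 was at 76.6 and 85.7 CPM in SSC, 108.4 and 120.6 CPM in pBCSP, 42.4 and 85.7 CPM in BCSP, 94.1 and 106.6 CPM in PCP, 74.9 and 71.4 CPM in THY, 94.4 and 112.4 CPM in BLSP, 166.2 and 116.5 CPM in 6C3, and 86.0 and 104.8 CPM in HEC. The 6C3 libraries were therefore high and BCSP replicate 1 low, and upstream and downstream values overlapped (log2 fold change -0.25, SE 0.14, edgeR adjusted p = 0.145). Igf2bp3 spanned 13.4 to 27.5 CPM upstream and 8.75 to 33.5 CPM downstream (log2 fold change 0.09, SE 0.19, edgeR adjusted p = 0.741). On the other strand, Malsu1 overlaps 18.7% of the exon bases of Igf2bp3, and a strand-specific protocol is not named, so reads of the 2 genes cannot be told apart there.

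**Figure D1:**
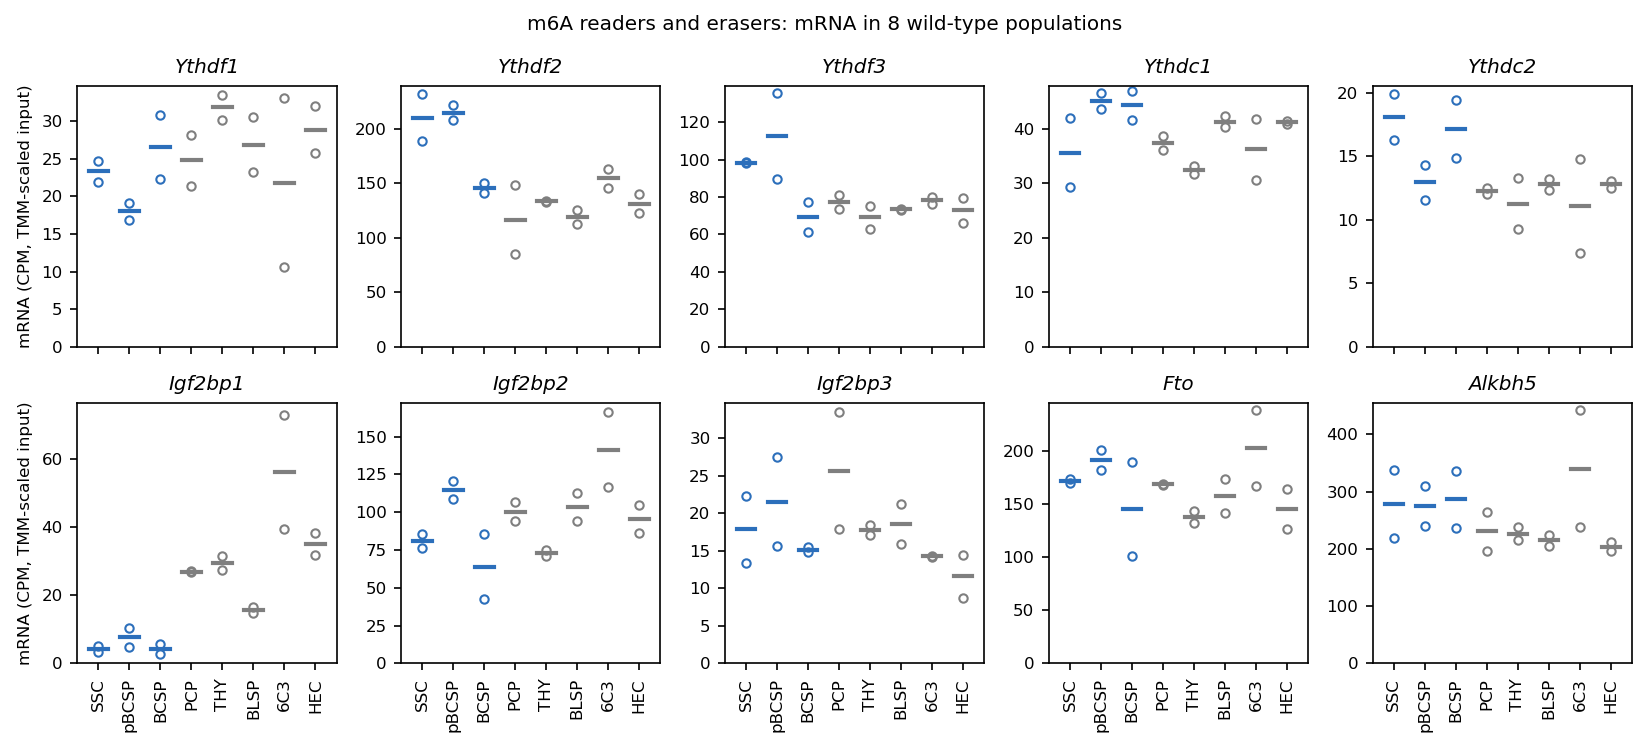
Input mRNA (y axis, CPM scaled by TMM, linear and starting at 0) of the 10 genes in the 8 WT populations (x axis); each circle is 1 library, each bar the mean of 2, with SSC, pBCSP and BCSP in blue and downstream populations in grey. Igf2bp1 is the only panel in which all blue circles (2.84 to 10.3 CPM) lie below all grey circles (14.9 to 73.0 CPM), and 1 library of 6C3 stands apart for Ythdf1, Ythdc2 and Alkbh5.

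Among the cytoplasmic readers, Ythdf2 (chr4:132184912-132212303) was highest in the most upstream cells. It was at 231.9 and 188.5 CPM in SSC, 221.6 and 207.9 CPM in pBCSP, 140.7 and 149.8 CPM in BCSP, 84.8 and 148.4 CPM in PCP, 133.8 and 133.2 CPM in THY, 125.7 and 112.8 CPM in BLSP, 163.2 and 145.8 CPM in 6C3, and 122.4 and 139.8 CPM in HEC. SSC and pBCSP stood above every other library, whereas BCSP overlapped the downstream populations. Its log2 fold change upstream over downstream was 0.52 (SE 0.11, edgeR adjusted p = 0.00125). Ythdf3 (chr3:16183212-16217037) had 61.3 to 136 CPM upstream, with a median of 93.9, and 63.0 to 80.9 CPM downstream, with a median of 74.4 (log2 fold change 0.31, SE 0.11, edgeR adjusted p = 0.0289). Of the BCSP libraries, replicate 2 (77.4 CPM) lay within the downstream range and replicate 1 (61.3 CPM) lay below it, the lowest of the 16 WT input libraries. Ythdf1 (chr2:180904377-180920949) spanned 16.9 to 30.8 CPM upstream and 10.6 to 33.5 CPM downstream and was not called (log2 fold change -0.25, SE 0.20, edgeR adjusted p = 0.305). The lowest value of Ythdf1 was that of 6C3 replicate 1, and all neighbors in the order of its population means overlapped.

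The nuclear reader Ythdc1 (chr5:86804221-86836659), which acts in splicing and export, had 29.2 to 47.0 CPM upstream and 30.7 to 42.3 CPM downstream (log2 fold change 0.14, SE 0.11, edgeR adjusted p = 0.313). Ythdc2, an RNA helicase known for its part in meiosis, lies on chromosome 18. Its values were 11.6 to 19.9 CPM upstream (median 15.6) and 7.39 to 14.8 CPM downstream (median 12.5), for a log2 fold change of 0.40 (SE 0.16, edgeR adjusted p = 0.0487). The call of Ythdc2 was lost in 13 and that of Ythdf3 in 7 of the 21 alternative analyses, whereas Ythdf2 and Igf2bp1 were called in all 21.

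The erasers did not separate the populations. Fto (chr8:91313525-91668439), an m6A demethylase whose locus is tied to body mass, was at 101.2 to 200.6 CPM upstream and 126.8 to 238.2 CPM downstream (log2 fold change 0.07, SE 0.13, edgeR adjusted p = 0.707). Alkbh5 (chr11:60536381-60558512), a nuclear demethylase, was at 218.9 to 337.9 CPM upstream and 195.5 to 442.8 CPM downstream (log2 fold change 0.23, SE 0.14, edgeR adjusted p = 0.197). The highest value of both, 238.2 CPM for Fto and 442.8 CPM for Alkbh5, came from 6C3 replicate 1, the library that was lowest for Ythdf1 (10.6 CPM) and Ythdc2 (7.39 CPM). The same library held the highest values of Igf2bp1 (73.0 CPM) and Igf2bp2 (166.2 CPM).

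Cell identity genes differed between the 2 sides as well. The 5 cartilage markers were all called higher upstream, yet their sums of 31669 to 38368 TPM there overlapped those of HEC (29539 to 37779 TPM) and 6C3 (16627 to 32595 TPM), and the low values were those of PCP, THY and BLSP (3855 to 9404 TPM). The 5 stroma markers were all lower upstream, with sums of 38.4 to 108 TPM against 136 to 1434 TPM downstream. Of the 5 osteoblast markers 4 were higher and 1, Col1a1, was lower (2081 to 6193 TPM upstream against 39250 to 78220 TPM downstream). The 4 higher ones, Runx2, Sp7, Bglap and Ibsp, overlapped between the sides. Runx2 was at 15.05 to 23.0 TPM upstream and 4.88 to 42.3 TPM downstream, and Sp7 at 12.5 to 50.65 and 5.50 to 100.4 TPM. In mean TPM, PCP lay above SSC and pBCSP for each of these 4. The 9 blood cell markers summed to 43.3 to 77.8 TPM upstream and 108 to 728 TPM downstream, with Ptprc, the gene of the CD45 antigen used to gate blood cells out, at 0 in all upstream WT libraries and at most 0.159 TPM downstream, and of the 8 tested 2 were higher upstream and 4 lower. Of the 5 endothelial markers 0 were called. They summed to 56.1 to 57.25 TPM in PCP, 6.23 to 7.26 TPM in THY and at most 10.7 TPM upstream. The part of these differences in the values of Igf2bp1 and the YTHDF readers was not tested.

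As a description over the 8 population means, the genes whose log2 CPM followed Igf2bp1 most closely were Lrp10 (Pearson's r = 0.996), Gas2l1 (0.995) and Klhl25 (0.995). For Ythdf2 these were Arfrp1 (0.989), Zfp189 (0.989) and Lta4h (0.986), and for Igf2bp2 they were Kcnmb4os1 (0.979), Pnmal1 (0.970) and Fzd6 (0.965). Each was picked out of 20060 genes over only 8 points, all from the same libraries. Among the members, Ythdf2 and Ythdf3 had the highest positive correlation (r = 0.849), followed by Igf2bp2 and Fto (r = 0.817). The highest library of both Igf2bp2 (166.2 CPM) and Fto (238.2 CPM) was 6C3 replicate 1. Opposite relations were stronger, with r = -0.936 for Ythdf1 and Fto and r = -0.898 for Ythdc2 and Igf2bp1.

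Companion genes of the pathway were mixed, and their counts stand beside 23.1% of all genes higher and 28.3% lower upstream. Of 12 m6A writer genes, 4 were higher upstream and 0 lower (edgeR adjusted p), with log2 fold changes of 0.80 for Mettl16, 0.49 for Mettl3, 0.56 for Zcchc4 and 0.45 for Rbm15. Of 15 other m6A binding proteins, 6 were higher and 1 lower, including the export receptor Nxf1 (0.94), Hnrnpc (0.83) and Eif3h (0.62) above and Fmr1 (-0.81) below. Of the 23 deadenylation and decay partners of YTHDF2, 7 were higher and 7 lower. Rida, the bridge to the endonuclease RNase P/MRP, was at 1.73, and the CCR4-NOT subunits Cnot8, Cnot7 and Cnot11 were at 0.53, 0.55 and -1.60. Of the 7 other AlkB dioxygenases, 4 were higher and 0 lower, namely Alkbh1 (1.47), Alkbh4 (1.05), Alkbh8 (0.85) and Alkbh6 (0.71).

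Of the 6 tested genes that lie beside Fto, 2 were lower upstream, Irx3 (-1.52) and Chd9 (-0.82), and 0 were higher. Of 9 tested genes of the let-7 and fetal growth program in which the IGF2BPs take part, 4 were higher and 1 lower. The growth factor Igf2, an mRNA bound by the IGF2BP proteins that carry its name, was lower at -2.85, while H19 was at 1.66, Plagl1 at 0.75 and Plagl2 at 0.59.

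The second question is how strongly the anti-m6A antibody enriched these transcripts. A gene was called higher in IP when IP exceeded input by more than 1 in log2 units with an unadjusted p under 0.05, the rule of the study, and lower at the mirror image of it. Across 10 genes and 8 WT populations, 4 of 80 tests were called higher, 20 lower and 56 neither, and with an adjusted p from edgeR in place of the unadjusted one these became 2 and 19. Over all genes tested, the share called higher was 6.67% in BCSP, 10.4% in SSC, 10.6% in PCP, 12% in pBCSP, 12.4% in both THY and BLSP, 13.5% in HEC and 14.5% in 6C3. The share called lower was 11.7% in BCSP, 13.9% in SSC, 14.2% in HEC, 14.5% in PCP, 14.8% in both pBCSP and BLSP, 15% in THY and 17% in 6C3. The lower calls were unevenly spread over the genes, since Ythdf3 held 8 and Fto 7 of the 20.

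Ythdf1 was the only member called higher in more than 1 population. In log2 units over the 2 replicates, its IP to input ratio was 1.44 and 1.39 for SSC, 1.67 and 1.64 for pBCSP, and 1.02 and 1.57 for BCSP. PCP had 0.35 and 0.23, THY 0.22 and 0.45, BLSP -0.15 and 0.02, 6C3 2.03 and -0.21, and HEC 0.77 and 0.13. Upstream libraries were therefore all above 1 and downstream libraries below 1, except for 6C3 replicate 1. By edgeR, IP exceeded input by 1.51 in SSC (SE 0.24, adjusted p = 0.0317), 1.73 in pBCSP (SE 0.22, adjusted p = 0.00979) and 1.32 in BCSP (SE 0.29, adjusted p = 0.0602), and the fitted values of the other populations were -0.14 to 0.73. Ythdc1 was called in SSC alone (1.02, SE 0.32, edgeR adjusted p = 0.0987), although its ratio was above 0 in 16 of 16 WT pairs, with 0.52 to 0.94 upstream and 0.26 to 0.75 downstream.

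The ratio of Ythdf1 differed between the upstream and downstream populations when the difference itself was tested. The log2 ratio was higher upstream by 1.30 (SE 0.25, edgeR adjusted p = 0.00174), and Ythdf1 was the only member called, beside 3.06% of 25365 genes called higher and 1.77% called lower with a median over all genes of -0.08. Without both libraries of 6C3 replicate 1, an analysis added after the data were seen, the difference was 1.48 (edgeR adjusted p = 7.5e-05). The study states that sorted cells were divided between IP and RNA-seq. With IP paired to its input as a replicate block within each population, 5 members were called in place of 1. In that fit the differences were 1.27 for Ythdf1 (adjusted p = 4.13e-05), 0.67 for Fto (adjusted p = 0.00681), 0.60 for Igf2bp2 (adjusted p = 0.0213), -0.58 for Ythdf2 (adjusted p = 0.00823) and -1.25 for Igf2bp1 (adjusted p = 0.032), all by edgeR. The same 4 genes without the block were at 0.65, 0.58, -0.56 and -1.13, with edgeR adjusted p between 0.0751 and 0.153. Tested over all 8 populations at once, 0.485% of genes were called and 0 members by edgeR. At an unadjusted p under 0.05, and likewise by DESeq2 and with the paired block, 1 member was called, Ythdf1 (edgeR adjusted p = 0.144 without the block and 0.00319 with it).

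The share of mitochondrial counts in the WT IP libraries followed the same split, at 1.56% to 2.92% upstream and 4.53% to 9.10% downstream. So did, in part, the share of genes with at least 100 input counts but at most 3 IP counts, at 0.579% to 2.64% upstream and 0.17% to 1.15% downstream. The part of these library properties in the Ythdf1 result was not tested.

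Ythdf3 and Fto lay below their input in nearly every population. The log2 ratio of Ythdf3 was between -1.77 and -0.96 upstream and between -1.92 and -0.89 downstream, below 0 in 16 of 16 pairs, and its fitted values ran from -1.70 in 6C3 to -1.04 in SSC. Ythdf3 was called lower in 8 of 8 populations by the unadjusted rule and in 7 by the adjusted one. Fto was below 0 in 16 of 16 pairs as well, from -2.22 in 6C3 replicate 2 to -0.18 in BCSP replicate 1, and was called lower in 7 of 8 populations, with BCSP as the exception (-0.90, SE 0.36). Upstream and downstream values of both genes overlapped.

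Igf2bp1 and Igf2bp2 also lay below their input, whereas Igf2bp3 did not. Igf2bp2 was below 0 in 16 of 16 pairs and was called lower in 6C3 (-1.81, SE 0.29), BLSP (-1.07, SE 0.23) and PCP (-1.06, SE 0.25). Igf2bp1 was below 0 in 16 of 16 pairs and was called lower in 6C3 (-1.74, SE 0.40) and pBCSP (-3.36, SE 0.71). Its replicates were close together in PCP, THY, BLSP and HEC (-0.95 to -0.67) but at -5.00 and -0.51 in SSC, where the IP libraries held 2 and 64 Igf2bp1 counts. Igf2bp3 lay between -0.88 and 0.57, above 0 in 10 of 16 pairs, and was called in no population.

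Alkbh5, with 10 GGACT sites, was above 0 in 13 of 16 pairs but reached no call, its highest fitted value being 0.83 in HEC (SE 0.13). Ythdf2 was below 0 in all 6 upstream pairs, at -1.08 to -0.02, and between -0.28 and 0.46 downstream. Ythdc2 was above 0 in 8 and below 0 in 8 pairs, with the widest gap in THY, where its replicates were at 0.95 and -1.66.

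**Figure D2:**
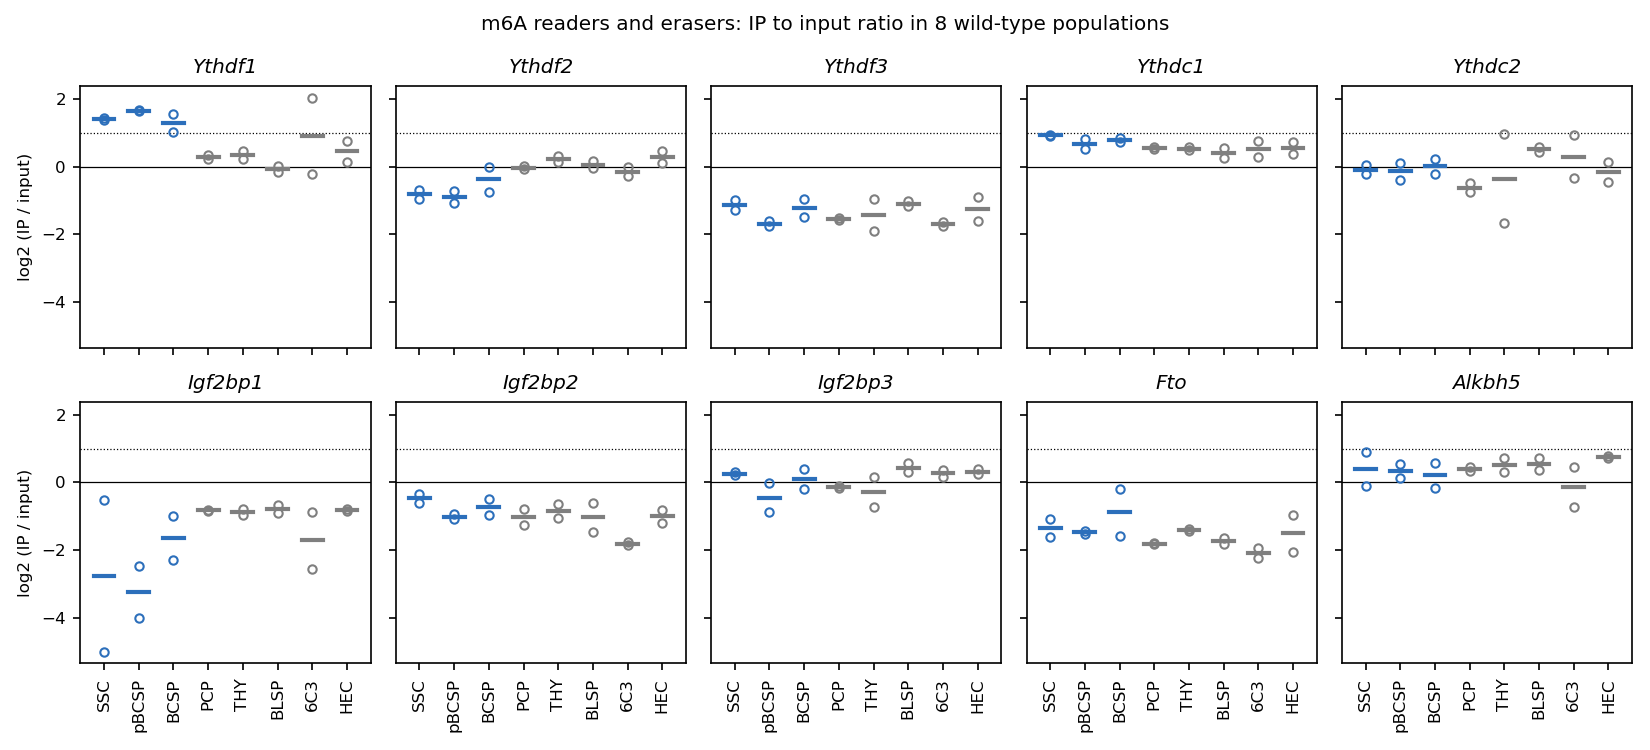
Log2 ratio of IP to input (y axis) of the 10 genes in the 8 WT populations (x axis); each circle is 1 replicate, each bar the mean of 2, with SSC, pBCSP and BCSP in blue, the solid line at 0 and the dotted line at the cutoff of 1. Ythdf1 lies above the dotted line in all 6 upstream replicates and in 1 of 10 downstream replicates, and all 16 circles of Ythdf3, Igf2bp1, Igf2bp2 and Fto lie below 0.

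For the ratio differences of companion genes between the 2 sides, the share over all genes was 3.06% higher and 1.77% lower upstream. By edgeR, 0 of 12 writers were called at an adjusted p and 0 at an unadjusted p under 0.05, and the same was true of the 7 other AlkB dioxygenases. Higher upstream were 2 of 15 other m6A binding proteins, Eif3b (1.96, SE 0.39) and Prrc2a (1.16, SE 0.27). The decay partners Cnot11 (1.41, SE 0.33) and Ddx6 (0.72, SE 0.20) were higher too, 2 of 23, and so were both Irx3 (1.44, SE 0.29) and Chd9 (0.81, SE 0.17) beside Fto, 2 of 6. Of the 11 fetal growth genes 0 were called, with 2 at an unadjusted p under 0.05, and none of these lists had a gene called lower.

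The third question is whether the readers and erasers differ in the libraries labelled Mettl3cko, in which Mettl3 itself was not lower in SSC or pBCSP. Across the 30 tests of 10 genes in SSC, pBCSP and BCSP, 6 were called at a log2 fold change beyond 0.5 and an unadjusted p under 0.05, the rule of the study, and all 6 were higher in the libraries labelled Mettl3cko. In SSC these were Ythdf2 (0.54, SE 0.19), Ythdc1 (1.03, SE 0.24) and Igf2bp2 (0.85, SE 0.19), in pBCSP Ythdf2 (0.63, SE 0.20), and in BCSP Ythdf2 (0.93, SE 0.20) and Igf2bp1 (1.49, SE 0.59). Over all genes, the SSC comparison called 6.96% higher and 7.07% lower, that of pBCSP 3.88% higher and 4.48% lower, and that of BCSP 7.22% higher and 5.72% lower. None of the genes reached an adjusted p under 0.05 within a population by edgeR, against 2363, 1341 and 2123 at an unadjusted p under 0.05, while DESeq2 called 661, 158 and 548 at an adjusted p. Among the members, DESeq2 called Ythdc1 and Igf2bp2 in SSC and Ythdf2 in BCSP.

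Ythdf2 was the member that separated the libraries by label. Against the WT values above, which ended at 231.9 CPM, the libraries labelled Mettl3cko held 287 and 324.5 CPM for SSC, 333.2 and 324 CPM for pBCSP, and 278.8 and 275.3 CPM for BCSP. All 6 of these values lay above all 6 WT values. How many of all genes separate by label in this way was not counted. Over the 3 populations, its log2 fold change was 0.71 (SE 0.10, edgeR adjusted p = 0.00339), and it was the only member called, where 3.75% of 18655 genes were higher and 2.72% lower. Leaving out any 1 of the 12 libraries gave 0.66 to 0.75, with the highest adjusted p at 0.0195 by edgeR.

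**Figure D3:**
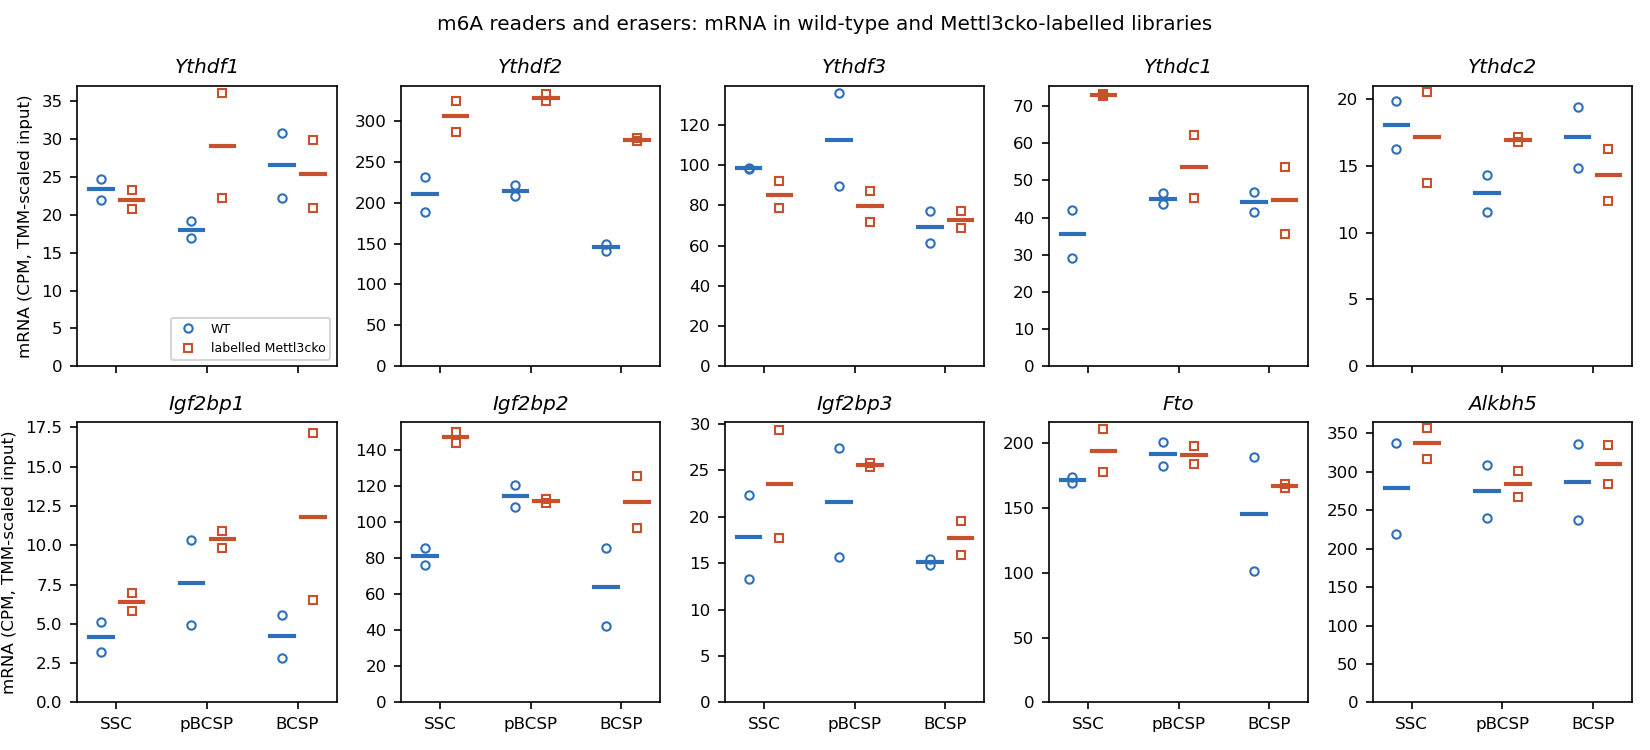
Input mRNA (y axis, CPM scaled by TMM, linear and starting at 0) of the 10 genes in SSC, pBCSP and BCSP (x axis) from WT (blue circles) and from mice labelled Mettl3cko (red squares); each symbol is 1 library and each bar the mean of 2. The squares of Ythdf2 (275.3 to 333.2 CPM) all lie above its circles (140.7 to 231.9 CPM), and in each of the other 9 panels the values of the 2 labels overlap over the 3 populations.

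The other readers were less clear. Igf2bp2 had 42.4 to 121 CPM in WT and 96.6 to 150 CPM in the libraries labelled Mettl3cko (log2 fold change 0.55, SE 0.16, edgeR adjusted p = 0.068), and the 2 labels did not overlap in SSC (76.6 and 85.7 against 144.2 and 150.2 CPM) or in BCSP. With 2 libraries per label, Ythdf3 and Igf2bp1 likewise did not overlap in 2 of 3 populations. Ythdf1, Ythdc1, Ythdc2, Igf2bp3 and Fto did not overlap in 1 of 3, and Alkbh5 in 0. The share of all genes that separate within a population was not counted, so these separations say nothing particular about the members. Igf2bp1 had 2.84 to 10.3 CPM in WT and 5.80 to 17.1 CPM in those labelled Mettl3cko (log2 fold change 0.86, SE 0.32, edgeR adjusted p = 0.135). Ythdc1 was at 29.2 and 42.0 CPM in WT SSC against 72.8 and 73.2 CPM in SSC labelled Mettl3cko, but overlapped in pBCSP and BCSP (over the 3 populations 0.44, SE 0.15, edgeR adjusted p = 0.111). DESeq2 called Igf2bp2 and Ythdc1 over the 3 populations (adjusted p = 0.0126 and 0.044). Whether the response differed among the 3 populations was tested as an interaction, with 0% of 18655 genes and 0 members called by edgeR, 0 members by DESeq2, and 1 member, Ythdc1, at an unadjusted p under 0.05.

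The remaining 6 genes had intervals that include no change at a size of 2 SE. Over the 3 populations, the log2 fold change was 0.19 (SE 0.17) for Ythdf1, -0.20 (SE 0.14) for Ythdf3, 0.03 (SE 0.18) for Ythdc2 and 0.30 (SE 0.21) for Igf2bp3. For the erasers it was 0.13 (SE 0.15) for Fto, with 101.2 to 200.6 CPM in WT and 165.5 to 210.4 CPM in libraries labelled Mettl3cko, and 0.16 (SE 0.14) for Alkbh5, with 218.9 to 337.9 CPM and 267.7 to 357.4 CPM. Their edgeR adjusted p ran from 0.42 to 0.99. Of the 10 fitted values, 9 were above 0, and the median was 0.24 against -0.05 over all genes.

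**Figure D4:**
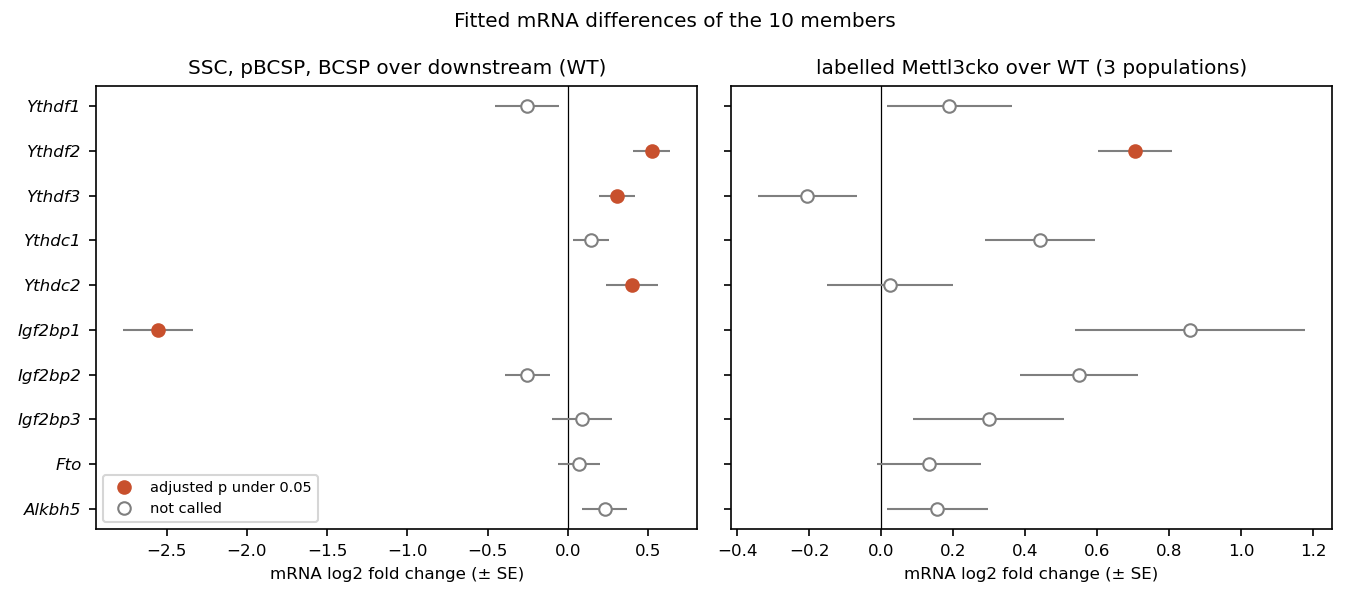
Fitted mRNA log2 fold change with its SE (x axis; the 2 panels differ in scale) of the 10 genes (y axis) for SSC, pBCSP and BCSP over downstream in WT (left) and for libraries labelled Mettl3cko over WT across 3 populations (right); filled points have an edgeR adjusted p under 0.05. Igf2bp1 stands at -2.55 on the left, and Ythdf2 is the only gene filled on both sides, at 0.52 and 0.71.

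The companion lists are given beside the share of all genes in the same comparison, 3.75% higher and 2.72% lower in the libraries labelled Mettl3cko. Of 12 m6A writers, 4 were higher in the libraries labelled Mettl3cko and 0 lower by edgeR, with log2 fold changes of 1.15 (SE 0.24) for Wtap, 0.84 (SE 0.19) for Rbm15, 0.50 (SE 0.13) for Mettl16 and 0.47 (SE 0.13) for Zc3h13. Wtap, Rbm15 and Zc3h13 encode accessory subunits of the methyltransferase complex, and Mettl16 encodes a separate m6A methyltransferase. The median of the 12 was 0.22 beside -0.05 over all genes. Other m6A binding proteins had 2 of 15 higher, Elavl1 (0.45) and Hnrnpc (0.56), the decay partners 1 of 23, Cnot7 (0.47), the fetal growth program 1 of 9, Hmga1 (0.64), and none of these had a gene called lower. Chd9 was lower (-0.53) among the 6 genes beside Fto, and 0 of the 7 other AlkB dioxygenases were called by edgeR, with 1 at an unadjusted p under 0.05.

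Globin transcripts among the blood cell markers moved with the Mettl3cko label, whereas the other blood cell markers did not separate the labels. The 9 blood cell markers summed to 43.3 to 77.8 TPM in the 6 WT input libraries of SSC, pBCSP and BCSP and to 117 to 239 TPM in the 6 labelled Mettl3cko. Of the 7 tested, 3 were called higher and 0 lower. Ptprc was at 0 in all WT libraries and at most 0.431 TPM in those labelled Mettl3cko, Cd3e was at 0 in all 12, and the globin Hba-a1 was at 0.614 to 11.8 TPM in WT and 17.2 to 85.5 TPM in those labelled Mettl3cko. Of the 5 cartilage markers 0 were called by edgeR and 1 had an unadjusted p under 0.05, and of the 5 osteoblast markers 0 and 3. The part of the blood markers in the Ythdf2 difference was not tested.

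The IP to input ratios did not set any member apart between the 2 labels. By edgeR, 0 of the 10 were called over the 3 populations, where 0.643% of 20360 genes were higher in libraries labelled Mettl3cko and 3.3% lower, with a median over all genes of -0.39. At an unadjusted p under 0.05 there were 2, Igf2bp1 (-4.50, SE 1.51, edgeR adjusted p = 0.109) and Alkbh5 (-0.73, SE 0.32, edgeR adjusted p = 0.242), and DESeq2 called Igf2bp1. The differences of Ythdf1 and Ythdf2 were 0.21 (SE 0.32) and 0.10 (SE 0.29), and Ythdf1 was above 0 in all 6 pairs labelled Mettl3cko, at 0.99 to 2.39. Ythdc1 was above 0 in all 6 of them too, at 0.47 to 1.58. Among the companion lists 1 gene was called, Alkbh2, at -5.94 (SE 1.42). The methods name no spike-in, so these ratios are relative to the other transcripts of a library and cannot show a shift common to all of them.

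Igf2bp1 shows how few IP reads stood behind the largest of these differences. Its WT IP counts were 2 and 64 for SSC, 26 and 23 for pBCSP, and 44 and 34 for BCSP. In the libraries labelled Mettl3cko SSC had 3 and 0, pBCSP 0 and 97, and both BCSP libraries 0, beside 169 to 588 input counts. The 2 labels therefore did not overlap in BCSP, and overlapped in SSC and in pBCSP, where the highest IP count of all came from a library labelled Mettl3cko. In BCSP, with a floor of 3 counts per library for a count of 0, the ratio of the group means was at least 32.8-fold lower in the libraries labelled Mettl3cko. The same computation gave 15.3-fold for SSC and 0.57-fold for pBCSP, where the ratio was thus higher in the libraries labelled Mettl3cko. The BCSP bound rests on single libraries. It was 20.4-fold without Mettl3cko replicate 2, 22.3-fold without WT replicate 1, 41.5-fold without Mettl3cko replicate 1 and 53.3-fold without WT replicate 2. The lowest WT ratio in BCSP exceeded the highest floor ratio 13.9-fold. Such a floor reflects counting error alone, as amplified copies do not count as independent molecules.

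Genes read in the input but missing from the IP were common in these libraries. Of the genes with at least 100 input counts, 8.37% to 19.7% had at most 3 IP counts in the 6 IP libraries labelled Mettl3cko, against 0.17% to 2.64% in the 16 WT IP libraries. Ythdf3 at -6.46 in SSC replicate 2, Igf2bp3 at -7.61 in pBCSP replicate 1 and Fto at -4.65 in pBCSP replicate 2 were the lowest log2 ratios of these members in libraries labelled Mettl3cko, and in each case the other replicate lay higher, at -1.26, -2.44 and -0.74. The part of these missing genes in the Igf2bp1 ratio was not tested.

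**Figure D5:**
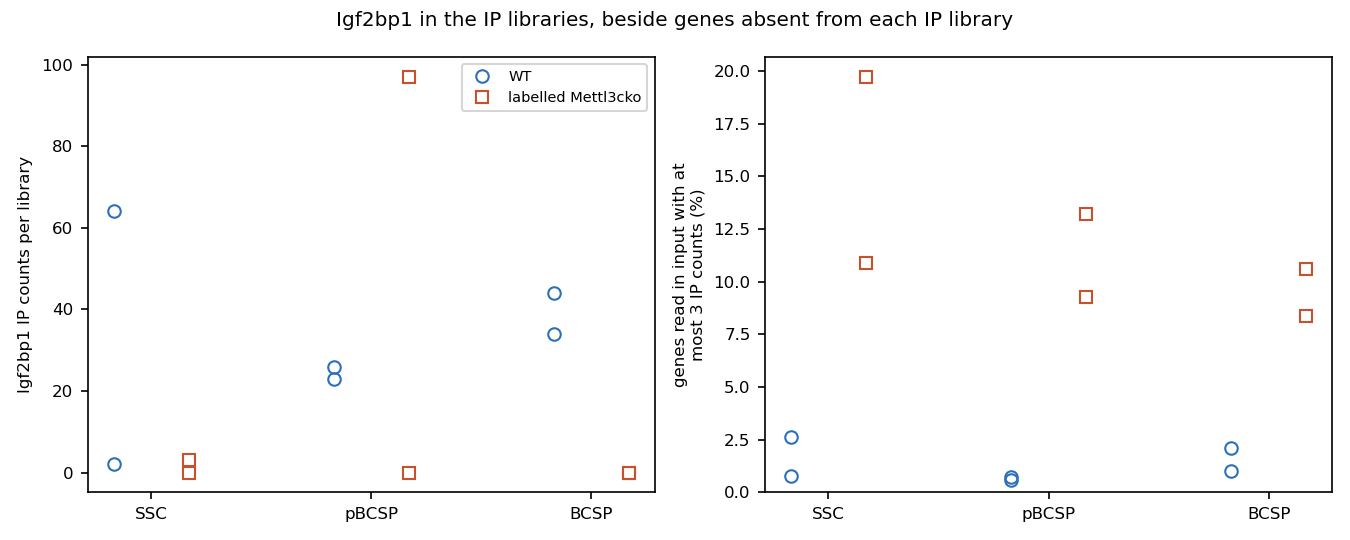
Left, Igf2bp1 counts in each IP library (y axis) of SSC, pBCSP and BCSP (x axis) from WT (blue circles) and from mice labelled Mettl3cko (red squares, with both BCSP squares at 0); right, percent of genes with at least 100 input counts that had at most 3 counts in each IP library (y axis). The squares lie at 0 to 3 counts except for 97 in 1 pBCSP library, and on the right all squares (8.37% to 19.7%) lie above all circles (0.579% to 2.64%).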

How the data were processed

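Counts per gene were analysed for 44 libraries. According to the methods and the submitters' processing notes, the authors trimmed reads with fastp 0.20.1, aligned them to GRCm38 with HISAT2 2.2.1 and made the deposited counts with featureCounts 2.0.1, without normalization. The Smart-seq2-based libraries are not stated to keep strand. Deposited tables of the authors' own comparisons (fold changes, p-values and scores) were not used. The count table has 46959 entries, of which 128 share a date as name (at most 0.390% of counts) and were left out, and positions, exon lengths (for TPM) and transcripts are from GENCODE vM21.

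Tests used edgeR 4.0.16 in R 4.3.3 (quasi-likelihood F test, TMM, filterByExpr with a minimum count of 10, Benjamini-Hochberg adjustment over all genes of a fit, threshold 0.05). SEs were derived from F and the fold change. Ratios per replicate are differences of log2 CPM with a prior count of 2, scaled by TMM over all 44 libraries. Each population was fitted apart for IP against input and for genotype, and the ratio comparisons are interaction terms. The fits were tested on simulated data. Alternatives were DESeq2 1.42.0, its size factors, library size alone, no filter, other p rules, replicate blocks and leaving out single libraries. Figures were drawn with matplotlib 3.10.9.

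The paired fit rests on the study's statement that sorts were divided between IP and RNA-seq. As a check, replicate deviations of IP and input correlated over genes at 0.0195 to 0.239 in 11 pairs, with 4 over 0.1, and those of Mettl3cko and WT at -0.0032 to 0.00546 in 3 pairs. The genes described were all 10 members, the 3 genes most correlated with each member called across populations, and up to 4 called genes per companion list by smallest p. Members and lists were chosen with earlier results of these data known. With 2 replicates per condition, p-values within a population rest on the spread estimated across genes, and the labels give all libraries the same batch.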

Additional observations from a re-analysis of the deposited data

Results flagged for a closer look

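The IP to input ratio of Ythdf1 differed between SSC, pBCSP and BCSP and the downstream populations in WT, with a log2 difference of 1.30 by edgeR's interaction test (adjusted p = 0.00174), and is listed here because 2 sets of populations differed in the same contrast. Of the 16 pairs, 14 were above 0, among them all 6 upstream. The call was kept in 39 of 39 alternative analyses, at 1.09 to 1.48. The mitochondrial share of the IP libraries followed the same split, and its part was not tested.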

How the results depend on the processing

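Over 410 alternative values of the 36 fold changes called for single members, 0 changed sign, 369 kept their call and 41 lost it, among them 13 of Ythdc2 and 7 of Ythdf3 upstream over downstream and 12 of 180 for the 20 lower calls of IP over input. Counts of members called moved as follows. With library size alone, mRNA upstream against downstream gave 2 members (Ythdf2, Igf2bp1) in place of 4. With an adjusted p, higher calls of IP over input fell from 4 to 2, and mRNA calls for Mettl3cko in single populations from 6 to 0. With an unadjusted p, the ratio across populations gave 1, the ratio upstream against downstream 6, mRNA for Mettl3cko over 3 populations 4, its interaction 1 and the ratio for Mettl3cko 2, in place of 0, 1, 1, 0 and 0. DESeq2 gave 1, 3, 3 and 1 for the ratio across populations, the ratio upstream against downstream, mRNA for Mettl3cko over 3 populations and the ratio for Mettl3cko, where edgeR gave 0, 1, 1 and 0. Its size factors gave 2 for the ratio upstream against downstream and moved the median of all genes there from -0.08 to -0.24. No filter gave 3 for that ratio, 2 for mRNA for Mettl3cko over 3 populations and 1 for the ratio for Mettl3cko. The cause of these moves was not tested.

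With the replicate number as a block, mRNA for Mettl3cko over 3 populations gave 2 members in place of 1 (Igf2bp2 added, edgeR adjusted p = 0.0269), and it gave 3, 4, 4, 7, 0 and 0 members for mRNA across populations, mRNA upstream against downstream, higher IP over input, single populations, the interaction and the ratio for Mettl3cko. These numbers do not pair the genotypes. With IP paired to its input, the ratio across populations gave 1 and the ratio upstream against downstream 5, as stated above, and the ratio for Mettl3cko 0.

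Leaving out 1 library gave 1 to 4 members for mRNA across populations (1 without SSC input replicate 1), 2 to 5 for mRNA upstream against downstream (2 without SSC input replicate 2 or HEC input replicate 1), 3 to 5 higher calls of IP over input, and 0 to 1 for the ratio across populations (1 without either 6C3 input library, Ythdf1, or SSC IP replicate 2, Igf2bp1). It gave 1 to 3 for the ratio upstream against downstream (3 without BCSP input or IP replicate 2, and 2 without SSC IP replicate 1 or 2, PCP input replicate 2 or 6C3 IP replicate 1), 5 to 8 for Mettl3cko in single populations, 1 to 2 over 3 populations (2 without WT BCSP input replicate 2), 0 to 0 for the interaction and 0 to 3 for the ratio for Mettl3cko. That ratio gave 1 or more members without Mettl3cko SSC IP replicate 1 or pBCSP IP replicate 1 or 2. Without both 6C3 replicate 1 libraries the ratio across populations gave 1, Ythdf1. Where an IP library held 0 to 3 counts of a gene, as for Igf2bp1, counting limits its ratio to a bound.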
